A study of Homo sapiens with 148 samples.

Results

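The 10 genes described here are markers of fibroblasts and smooth muscle cells: PDGFRA, PDGFRB, LUM, DCN, POSTN, THY1, FN1, ACTA2, TAGLN and FAP. They were chosen by name, with earlier results of these data known. All 10 were found as single entries among the 49085 gene names of a mean RNA-seq table. H9, an established human embryonic stem cell line, was taken along a pancreatic differentiation course, and wild-type cells were collected at 6 stages: undifferentiated hESCs, definitive endoderm (DE, day 4), primitive gut tube (PGT, day 7), pancreatic progenitors (PP, day 14), a stage labelled PH, and SC-β organoids (stem cell-derived β-cell organoids, day 35). PH is not spelled out in the sources used here and carries no day, so its place in the course is unknown and it is compared with PP and with SC-β separately. Each stage is a mean over 2 RNA-seq samples, 12 of the 148 samples in the series. All 6 stages share 1 cell line, and the differentiated cells were grown as 3D spheroids in which no cell type was sorted.

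Fibroblasts are the connective tissue cells that secrete and remodel extracellular matrix, and smooth muscle cells are the contractile cells of vessel and gut walls. The pancreas holds both around its ducts and vessels, together with stellate cells, which take on contractile and matrix-producing features when activated. Both lineages respond to platelet-derived growth factors (PDGFs) through a pair of receptor tyrosine kinases, build collagen fibres dressed with small leucine-rich proteoglycans, and in the contractile state express smooth muscle actin. Several of these genes are also used by other cells: FN1 is made by hepatocytes and early endoderm, and THY1 is a surface marker of pluripotent stem cells.

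The unit throughout is TPM (a transcript abundance), which is scaled by gene length and by the library total, so that levels can be compared between genes. Only the authors' mean per stage was given, so no spread, standard error, interval or test can be set beside any value, and the read counts behind each value are not known here. A difference between stages was counted when log2((TPM + 1) / (TPM of the reference stage + 1)) reached 2-fold, and every log2 ratio below is on that scale, which understates the change of genes near 1 TPM. Because this is bulk RNA, fewer cells of a type and less RNA per cell cannot be told apart.

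The stage labels other than PH were checked on marker genes. No marker was set for PH, where SOX17 was listed at 0, HNF4A was at 0.292 TPM and PDX1 at 0.0173 TPM. INS and GCG were at 6.86 and 27.2 TPM in PH. POU5F1, the pluripotency factor, was at 1449 TPM in hESCs and at 0.377 TPM in SC-β. SOX17 peaked in DE (96.1 TPM), HNF4A in PGT (33.7 TPM) and PDX1 in PP (3.17 TPM), while the hormones INS and GCG peaked in SC-β at 298 and 2793 TPM. A few structural RNAs took between 31.8% and 50.9% of the TPM total of a stage, with the highest share in PH. When each stage was rescaled by a median ratio over 13938 names at 1 TPM or more in every stage, the factors ran from 0.827 in hESCs to 1.19 in SC-β.

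RefSeq promoter windows on GRCh38.p14 were found for 5 of the 10 genes: PDGFRA, PDGFRB, POSTN, FN1 and ACTA2. LUM, DCN, THY1, FAP and TAGLN had no entry. The 250 bases before 1 start of each gene are printed below because the results below turn on how these genes part ways: FN1 was highest in PGT, ACTA2 was low in PH, and the receptors and POSTN were higher in PH and highest in SC-β. The sequences run 5′ to 3′ on the gene's strand. Capitals mark the letters found by a search, on both strands, for CCAAT, for the TATA box letters TATAAA, for the cyclic AMP response element TGACGTCA and for the CArG box with up to 1 mismatch. The CArG box is the element bound by serum response factor at smooth muscle genes. Positions are counted backwards from the start, with -1 as the last base before it. No match overlapped another.
ACTA2, start 2, chr10:88952774-88953023, minus strand: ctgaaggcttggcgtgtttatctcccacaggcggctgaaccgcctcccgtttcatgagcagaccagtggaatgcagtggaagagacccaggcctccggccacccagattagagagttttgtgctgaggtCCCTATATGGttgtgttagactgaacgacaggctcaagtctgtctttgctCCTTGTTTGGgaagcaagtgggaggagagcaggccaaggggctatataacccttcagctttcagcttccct
FN1, chr2:215436069-215436318, minus strand: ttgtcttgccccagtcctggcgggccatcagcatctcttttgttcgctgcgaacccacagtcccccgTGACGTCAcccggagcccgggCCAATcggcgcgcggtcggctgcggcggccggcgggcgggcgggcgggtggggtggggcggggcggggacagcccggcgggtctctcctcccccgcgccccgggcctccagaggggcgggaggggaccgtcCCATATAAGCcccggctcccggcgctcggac
PDGFRA, start 2, chr4:54233710-54233959, plus strand: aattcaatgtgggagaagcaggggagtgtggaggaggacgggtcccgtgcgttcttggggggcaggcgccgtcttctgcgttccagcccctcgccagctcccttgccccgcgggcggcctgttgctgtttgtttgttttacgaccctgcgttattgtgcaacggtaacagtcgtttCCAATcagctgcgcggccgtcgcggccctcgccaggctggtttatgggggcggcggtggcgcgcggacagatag
PDGFRB, chr5:150155846-150156095, minus strand: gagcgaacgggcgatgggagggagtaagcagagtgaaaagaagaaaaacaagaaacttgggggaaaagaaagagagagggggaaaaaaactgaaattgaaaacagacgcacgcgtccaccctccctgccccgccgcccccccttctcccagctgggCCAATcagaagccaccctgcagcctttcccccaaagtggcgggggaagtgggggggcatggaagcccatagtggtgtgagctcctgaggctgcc
POSTN, chr13:37598769-37599018, minus strand: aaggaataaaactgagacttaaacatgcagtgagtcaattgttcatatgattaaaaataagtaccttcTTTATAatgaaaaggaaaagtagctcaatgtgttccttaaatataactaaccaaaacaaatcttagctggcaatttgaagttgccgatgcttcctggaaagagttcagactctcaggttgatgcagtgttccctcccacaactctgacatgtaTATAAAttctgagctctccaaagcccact
The ACTA2 window lies inside the annotated span of ACTA2, before its downstream start, and held 2 matches to the CArG box with 1 mismatch, CCCTATATGG at -121 to -112 and CCTTGTTTGG at -71 to -62. FN1 held a further such match, CCATATAAGC, at -31 to -22, and TGACGTCA at -183 to -176. Among 35116 RefSeq promoter windows of the same length, 16.8% held a CArG box with up to 1 mismatch and 1.16% an exact one, which none of the printed windows had. TGACGTCA was in 1.65% of all windows. CCAAT was found in the windows of FN1, PDGFRA and PDGFRB and in 32.0% of all windows. POSTN held TATAAA at -29 to -24 and its reverse complement TTTATA at -182 to -177, a motif present in 10.7% of all windows. PDGFRA and ACTA2 each have another start with an entry, and neither of those windows held a match. Such matches describe letters only, and nothing about binding was measured here.

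Across the 6 stages, 7 of the 10 genes were highest in SC-β: PDGFRA, PDGFRB, LUM, DCN, POSTN, FAP and ACTA2. THY1 and TAGLN were highest in hESCs, and FN1 in PGT. Of the 28202 names that reached 1 TPM in any stage, 38.8% were highest in SC-β, 12.5% in hESCs, 9.94% in PGT and 4.66% in PP. The number of the 10 genes at 10 TPM or more was 3 in hESCs, 3 in DE and 2 in PGT, then 6 in PP, 7 in PH and 9 in SC-β. No share at 10 TPM was computed over all names. At 1 TPM or more the number of the 10 genes was 6, 5, 7, 10, 10 and 10 in the same order. Over all names it was 16784, 21619, 19675, 19225, 19548 and 24571. FN1, THY1 and TAGLN thus did not follow the other 7 genes. The highest stage of all 10 genes was the same after median-ratio rescaling and after the totals were recomputed without the structural RNAs.

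**Figure D1:**
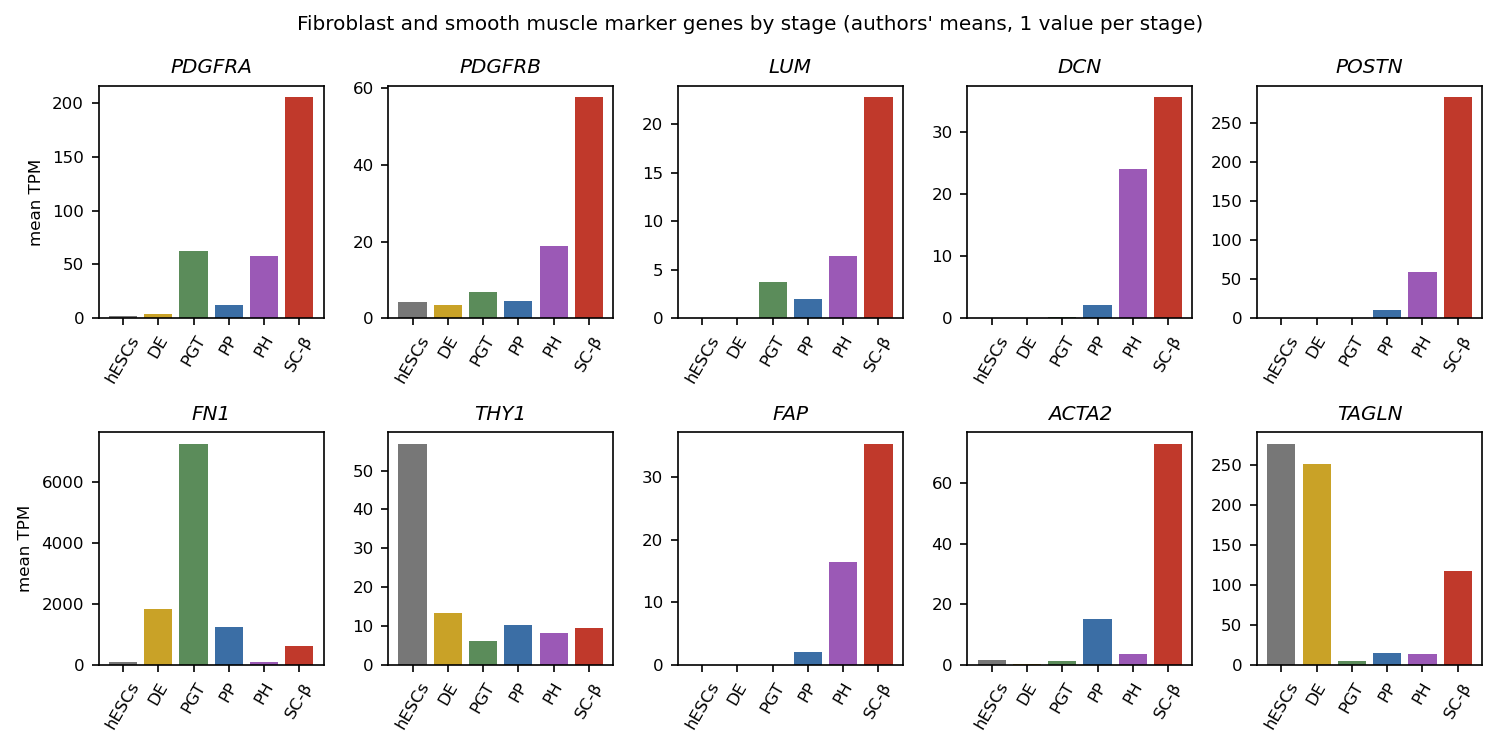
Bars give the authors' mean TPM of each of the 10 genes (vertical axis, linear, starting at 0 and scaled per gene) at the 6 stages (horizontal axis), with 1 value per stage and no error bar. Of the 10 panels, 7 peak in SC-β, THY1 and TAGLN peak in hESCs at 57.0 and 277 TPM, and FN1 peaks in PGT at 7276 TPM.

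PDGFRA, the receptor for PDGF-A, PDGF-B and PDGF-C chains (chr4:54229280-54298245, plus strand; all gene positions are from GENCODE version 44 on GRCh38), was at 2.34 TPM in hESCs, 4.17 in DE and 62.0 in PGT, then 11.9 in PP, 58.1 in PH and 205 in SC-β. It thus had an early maximum in PGT, a low point in PP and a second, larger maximum in SC-β. The log2 ratio was 3.61 for PGT against DE, -2.29 for PP against PGT and 4.00 for SC-β against PP, and PH was at 4.90 times the PP level. PGT and PH lay close together, and their order was reversed under median-ratio rescaling and without the structural RNAs. In SC-β it ranked 319 of all names by TPM.

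PDGFRB, which binds the PDGF-B and PDGF-D chains and marks pericytes and mural cells (chr5:150113839-150155872, minus strand), was at 4.34 TPM in hESCs, 3.46 in DE and 6.88 in PGT, then 4.45 in PP, 18.8 in PH and 57.8 in SC-β. The first 4 stages stayed within 3.46 to 6.88 TPM, and PH and SC-β were above them. The log2 ratio was 1.86 for PH against PP and 3.43 for SC-β against PP. The ratio of PDGFRA to PDGFRB, as plain TPM, was 0.538 in hESCs, 1.20 in DE and 9.02 in PGT, then 2.67 in PP, 3.08 in PH and 3.55 in SC-β. PDGFRB was the more abundant receptor in hESCs alone, and the PGT maximum of PDGFRA had little counterpart in PDGFRB, whose log2 ratio for PGT against DE was 0.82.

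LUM encodes lumican, a small leucine-rich proteoglycan that spaces collagen fibrils (chr12:91102629-91111494, minus strand). It was listed at 0 in hESCs and was at 0.0178 TPM in DE, 3.71 in PGT, 1.98 in PP, 6.39 in PH and 22.8 in SC-β. Like PDGFRA, it was lower in PP than in PGT, with a log2 ratio of -0.66 that did not reach 2-fold.

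DCN encodes decorin, the related proteoglycan that binds collagen and TGF-beta, and is the next protein-coding gene to LUM, 28990 bases away on the same strand (chr12:91140484-91183217). It was at 0.0222 TPM in hESCs, listed at 0 in DE, and at 0.276 TPM in PGT, 2.13 in PP, 24.2 in PH and 35.7 in SC-β. The neighbours therefore differed in order: LUM was 13.4 times as abundant as DCN in PGT, the pair were near 1 to 1 in PP, where DCN was 1.08 times LUM, and DCN was 3.78 times LUM in PH and 1.56 times LUM in SC-β. DCN also differed from most of the list between the late stages, since its log2 ratio was 3.01 for PH against PP but 0.55 for SC-β against PH. KERA, the family member on the other side of LUM, stayed at or below 0.107 TPM.

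POSTN encodes periostin, a matrix protein of periosteum, valves and activated fibroblasts (chr13:37562583-37598844, minus strand). It was at 0.951 TPM in hESCs, 0.352 in DE and 0.378 in PGT, then 11.0 in PP, 59.4 in PH and 283 in SC-β. The 3 early stages were below 1 TPM. POSTN was at least 2-fold higher in PP than in PGT, in PH than in PP, and in SC-β than in PH. POSTN had the largest log2 ratio of the 10 genes for SC-β against PP, 4.56, and ranked 234 of all names in SC-β.

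FN1 encodes fibronectin, the glycoprotein that links integrins to the matrix (chr2:215360440-215436073, minus strand). It was at 90.8 TPM in hESCs, 1846 in DE and 7276 in PGT, then 1232 in PP, 86.2 in PH and 609 in SC-β. In PGT it was the 9th most abundant name of the table, with 0.728% of the TPM total, and it was the most abundant of the 10 genes at every stage but hESCs, where TAGLN exceeded it. Its log2 ratio was 4.33 for DE against hESCs, 1.98 for PGT against DE, -2.56 for PP against PGT, -3.82 for PH against PP and -1.02 for SC-β against PP. It was lower in PH than in PP while the other matrix genes of the list were higher. hESCs and PH lay close together, and their order was reversed without the structural RNAs.

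THY1 encodes the glycosylphosphatidylinositol-anchored surface protein CD90 (chr11:119415476-119424985, minus strand). It was at 57.0 TPM in hESCs, 13.3 in DE and 6.16 in PGT, then 10.2 in PP, 8.16 in PH and 9.38 in SC-β. hESCs stood apart, and the other 5 stages lay between 6.16 and 13.3 TPM. The log2 ratio was -2.02 for DE against hESCs. DE in turn was at 2.16 times the PGT level, a difference that fell short of 2-fold on the log2 scale under all 3 other scalings. It was the only gene of the 10 that did not reach 2-fold in any of the 3 comparisons among PP, PH and SC-β.

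FAP encodes fibroblast activation protein, a membrane serine protease of the dipeptidyl peptidase family found on activated stromal fibroblasts (chr2:162170684-162245151, minus strand). It was listed at 0 in hESCs, DE and PGT, and was at 2.03 TPM in PP, 16.5 in PH and 35.3 in SC-β. Its log2 ratio was 2.53 for PH against PP and 3.58 for SC-β against PP. For SC-β against PH it was 1.06, and from 0.58 to 0.66 under the 3 other scalings. The next protein-coding gene is GCG, the glucagon gene, which lies 18280 bases from FAP on the same strand and was also listed at 0 in hESCs, DE and PGT. GCG was at 16.5 TPM in PP, 27.2 in PH and 2793 in SC-β. IFIH1, on the other side, was at 5.03 TPM or less. The part of this neighbourhood in the FAP level was not tested.

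ACTA2 encodes the smooth muscle actin isoform (chr10:88935074-88991339, minus strand). It was at 1.59 TPM in hESCs, 0.250 in DE and 1.19 in PGT, then 15.2 in PP, 3.57 in PH and 73.1 in SC-β. PP and SC-β were its highest stages and PH was below both, with a log2 ratio of 2.89 for PP against PGT, -1.83 for PH against PP and 4.02 for SC-β against PH. In this respect ACTA2 ran against the receptors, LUM, DCN, POSTN and FAP, all of which were higher in PH than in PP. ACTA2 overlaps FAS on the opposite strand, and FAS was at 4.08 TPM in hESCs, 0.294 in DE and 0.865 in PGT, then 13.2 in PP, 1.44 in PH and 5.43 in SC-β. The strand setting of the counting is not given in the sources used here, so reads of the overlapping stretches cannot be assigned. The same holds for STAMBPL1 and ACTA2-AS1, which overlap ACTA2 on the same opposite strand. STAMBPL1 reached 8.95 TPM in SC-β and at most 3.52 TPM elsewhere, and ACTA2-AS1 reached 1.86 and at most 0.502 TPM. FAS too was higher in PP than in PGT and PH, and in SC-β ACTA2 was at 73.1 TPM and FAS at 5.43 TPM. The part of the overlapping genes in the ACTA2 level was not tested.

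TAGLN encodes transgelin, or SM22, an actin-binding protein of the calponin family (chr11:117199370-117207464, plus strand). It was at 277 TPM in hESCs, 251 in DE and 4.50 in PGT, then 14.6 in PP, 13.2 in PH and 117 in SC-β. It was high at both ends of the course and low in the middle, with a log2 ratio of -5.52 for PGT against DE and 2.92 for SC-β against PP. The ratio of TAGLN to ACTA2, as plain TPM, was 174 in hESCs, 1005 in DE and 3.77 in PGT, then 0.961 in PP, 3.69 in PH and 1.60 in SC-β. The contractile pair were thus within a factor of 4 of each other in PGT, PP, PH and SC-β and far apart in hESCs and DE. PCSK7, which overlaps TAGLN on the opposite strand, was between 12.1 and 20.9 TPM at every stage.

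**Figure D2:**
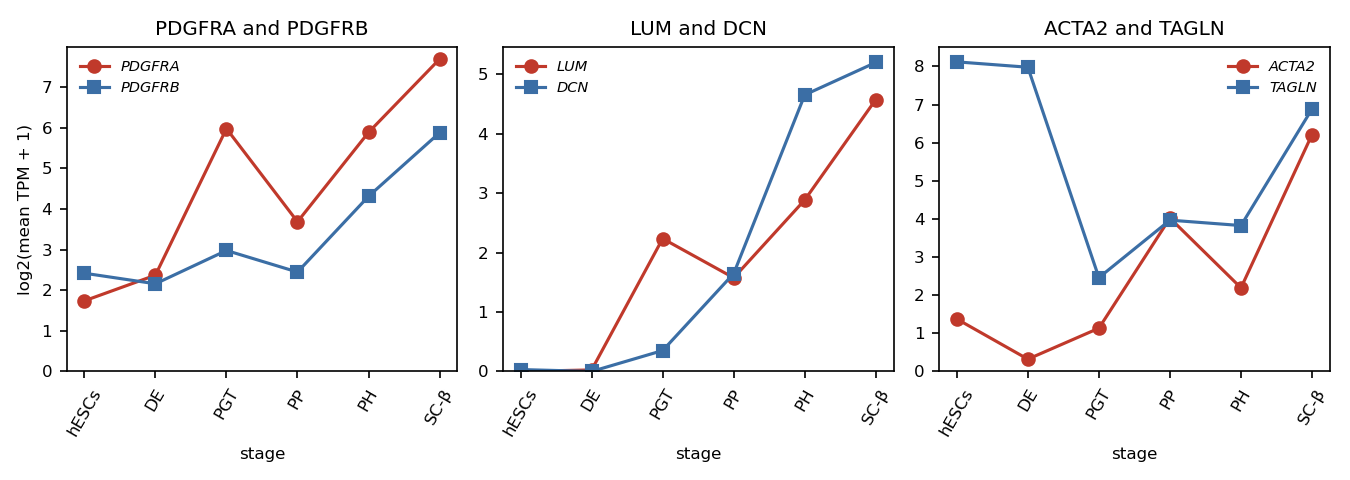
Lines join log2(mean TPM + 1) (vertical axis) at the 6 stages (horizontal axis) for the PDGF receptors, the neighbouring proteoglycans and the contractile genes, with 1 value per stage. PDGFRA has a PGT maximum (log2 ratio 3.61 against DE) that is smaller in PDGFRB (0.82). LUM is above DCN in PGT and below it in PH, and TAGLN and ACTA2 are apart in hESCs and DE and near each other in PP.

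Between successive stages, 3 of the 10 genes reached 2-fold for DE against hESCs, 5 for PGT against DE and 7 for PP against PGT. For DE against hESCs, only FN1 was higher and THY1 and ACTA2 were lower, against 12.9% of all names higher and 2.55% lower (28.2% and 5.55% of names at 1 TPM or more in either stage). The median log2 ratio of the 10 genes was -0.09, and that of all names at 1 TPM or more was 0.58. For PGT against DE, PDGFRA, LUM and FN1 were higher and THY1 and TAGLN lower, against 2.3% and 4.92% of all names (4.94% and 10.6% of names at 1 TPM or more), with medians of 0.58 for the 10 genes and -0.19 for all such names. The split of 3 higher to 2 lower became 3 to 1 under median-ratio rescaling and 4 to 1 without the structural RNAs or without the 100 most abundant genes. For PP against PGT, DCN, POSTN, FAP, ACTA2 and TAGLN were higher and PDGFRA and FN1 lower, against 2.74% and 3.25% of all names (6.3% and 7.46% of names at 1 TPM or more), with medians of 0.97 and -0.10. FAP is counted here from its 2.03 TPM in PP against a listed 0.

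The late comparisons involve PP, PH and SC-β, beside the start and end of the course. For SC-β against PP, 8 of the 10 genes were higher (all but FN1 and THY1) and FN1 was lower, against 10.6% of all names higher and 0.939% lower (20.7% and 1.84% of names at 1 TPM or more). The median log2 ratio was 3.21 for the 10 genes and 0.45 for all such names, whose 5th and 95th percentiles were -0.57 and 1.76. The 8 genes ranged from 2.19 for ACTA2 to 4.56 for POSTN, all above that upper percentile. For SC-β against hESCs, 8 were higher (all but THY1 and TAGLN) and 2 lower, against 22.2% and 3.7% of all names (42.4% and 7.08% of names at 1 TPM or more), with medians of 4.71 and 0.83. LUM and FAP, listed at 0 in hESCs, are among the 8 without a fold. FN1 is among the 100 most abundant genes and has no value without them, which turned the members' split from 1 to 2 into 0 to 2 for DE against hESCs, from 5 to 2 into 5 to 1 for PP against PGT, from 8 to 1 into 8 to 0 for SC-β against PP and from 6 to 2 into 6 to 1 for PH against PP.

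PH divided the list. Against PP, the receptors PDGFRA and PDGFRB, the matrix genes LUM, DCN and POSTN, and FAP were higher, 6 in all, while FN1 and ACTA2 were lower, against 5.14% of all names higher and 5.73% lower (11.5% and 12.8% of names at 1 TPM or more). The log2 ratios of the 6 genes ran from 1.31 for LUM to 3.01 for DCN, and TAGLN and THY1 were at -0.14 and -0.29. For SC-β against PH, 8 genes were higher (all but DCN and THY1) and none lower, against 14.7% and 2.41% of all names (28.1% and 4.6% of names at 1 TPM or more). The largest ratios there were those of ACTA2 (4.02), TAGLN (3.06) and FN1 (2.80), all of which were below their PP level in PH, as was THY1; for TAGLN the PH against PP ratio of -0.14 turned to between 0.05 and 0.08 under the 3 other scalings. The median of the 10 genes was 1.59 for PH against PP and 1.75 for SC-β against PH, with -0.10 and 0.59 for all names at 1 TPM or more. These comparisons share the columns of PP, PH and SC-β, so they are not independent of each other.

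**Figure D3:**
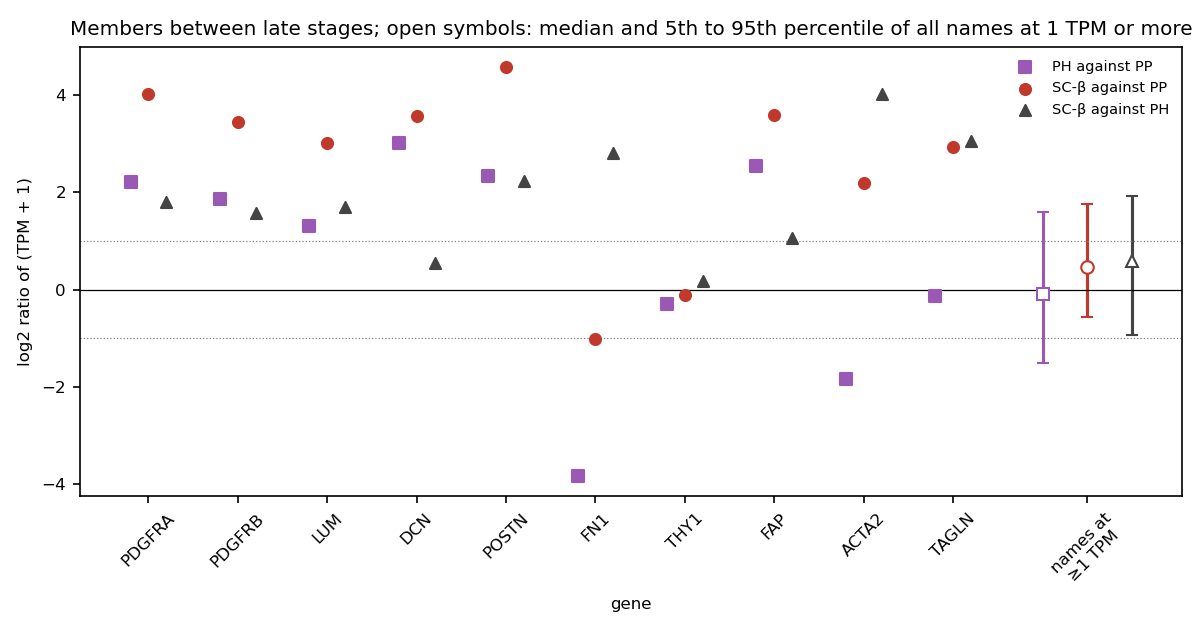
Points give the log2 ratio of (TPM + 1) (vertical axis) of the 10 genes (horizontal axis) for PH against PP, SC-β against PP and SC-β against PH, and the open symbols at the right give the median with bars from the 5th to the 95th percentile of all names at 1 TPM or more in either stage. Dotted lines mark 2-fold; FN1 and ACTA2 are below them for PH against PP, at -3.82 and -1.83, while 8 genes are above them for SC-β against PP.

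Median-ratio rescaling shifted all log2 ratios of a comparison by a common amount, which before the pseudocount was -0.48 for DE against hESCs, 0.15 for PGT against DE, 0.09 for PP against PGT, -0.27 for SC-β against PP, -0.52 for SC-β against hESCs, 0.22 for PH against PP and -0.50 for SC-β against PH. The split of calls over all names moved with it. It went from 6352 higher and 1250 lower to 3591 and 2365 for DE against hESCs, from 10880 and 1816 to 7334 and 3319 for SC-β against hESCs, from 2522 and 2812 to 3356 and 2183 for PH against PP, and from 7202 and 1181 to 4047 and 2112 for SC-β against PH. The last 2 comparisons also moved without the structural RNAs, to 4383 and 2939 and to 6404 and 2450, and without the 100 most abundant genes, to 4831 and 3551 and to 7196 and 2851. No log2 ratio of the 10 genes that reached 2-fold changed its sign under any of these settings. Of the others, TAGLN did for PH against PP, as given above, and THY1 for SC-β against PH, from 0.18 to between -0.27 and -0.21 under the 3 other scalings.

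Among the 7 genes that were highest in SC-β, Pearson's r of log2(TPM + 1) over the 6 stages was between 0.62 and 0.996 for the 21 pairs, with a median of 0.87. FAP and DCN had the highest r, 0.996, and TAGLN and THY1, both highest in hESCs, had 0.72. These are descriptions over 6 stage means that share a cell line and a fixed TPM total, and 7 genes picked for a common maximum are bound to run alike in part.

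The genes with the most similar course were sought among 12208 names at 10 TPM or more in a stage, and all r below are over n = 6 stage means. For PDGFRA the most similar name was TGFB2 (r = 0.99), a TGF-beta ligand, which was at 45.1 TPM in PGT, 5.57 in PP, 38.5 in PH and 83.4 in SC-β, followed by RNU7-119P and TGFB2-AS1. For PDGFRB it was NR3C1, the glucocorticoid receptor gene (r = 0.99), then BRINP2 and IFT46. For LUM the names were CPED1, BARX2 and PVRL4, and for POSTN they were SGCD, MIR181A1HG and CCDC140. DCN and FAP shared TMEM119 among their most similar names (r = 0.999 and 0.998), DCN with NTRK2 and DKK2 besides, and FAP with DNM3OS and FLJ12825. For ACTA2 they were SULT1C4, MAML2 and PLEKHA7. The other courses were matched by FN1 with UPRT, EPB41L5 and CD2BP2, THY1 with SNRPGP10, ACTR5 and C8orf88, and TAGLN with UTP15, PLTP and IMMT. With 6 points many names come close: between 12 names (TAGLN) and 132 names (FAP) had an r of 0.95 or more. With a pseudocount of 0.1 TPM, all 3 names were retained for FN1 and TAGLN and none for LUM, POSTN and ACTA2.

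The wider matrix programme was looked at through lists of related genes. Of 18 fibrous matrix genes, 11 were higher and none lower in SC-β than in PP, with a median log2 ratio of 1.95. Of names at 1 TPM or more, 20.7% were higher and 1.84% lower, with a median of 0.45. COL3A1, the chain of type III collagen, was at 14.9 TPM in PP, 349 in PH and 771 in SC-β (log2 ratio 5.60 for SC-β against PP). COL6A3, a chain of type VI collagen, was at 1.63, 71.2 and 144 TPM in the same stages (5.79). COL1A2 was the most abundant by its mean over stages, at 509 TPM in SC-β, while COL1A1, its partner chain in type I collagen, was at 34.1 TPM there. For PH against PP, 10 of the 18 were higher and COL5A2, FBLN2 and TNC were lower, with a median of 1.53. Of names at 1 TPM or more, 11.5% were higher and 12.8% lower there, with a median of -0.10.

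The proteoglycan family of LUM and DCN was in part highest elsewhere. Of 8 relatives, 5 were higher in SC-β than in PP and none lower, with a median of 1.19. The shares of names at 1 TPM or more were 20.7% and 1.84%, with a median of 0.45. OGN and ASPN peaked in PH, at 25.2 and 28.4 TPM against 6.23 and 3.05 TPM in SC-β, so that the summed level of the 8 was 57.6 TPM in PH and 23.9 TPM in SC-β. BGN, encoding biglycan, was highest in SC-β at 9.35 TPM, and PRELP, KERA and EPYC were under 1 TPM at every stage.

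The PDGF ligands differed among themselves. PDGFD was at 12.4 TPM in PGT, 5.18 in PP, 11.6 in PH and 13.5 in SC-β, its highest stage, so that like PDGFRA it was lower in PP than in PGT and PH. PDGFC was highest in PP (38.5 TPM) and was at 8.25 TPM in PH and 29.1 in SC-β. PDGFA was highest in hESCs (39.1 TPM) and was at 12.5 TPM in SC-β. Of the 4 ligands, PDGFD alone reached 2-fold in SC-β against PP (log2 ratio 1.23), and none was lower. That share is near the 20.7% of all names at 1 TPM or more. For PH against PP, PDGFD was higher and PDGFA and PDGFC lower, against 11.5% and 12.8% of such names.

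Contractile genes of smooth muscle were compared with ACTA2 and TAGLN. Of 15, 9 were higher in SC-β than in PP and none lower, with a median of 1.27, and 4 were higher and 3 lower in PH than in PP, with a median of -0.42. Among names at 1 TPM or more, 20.7% were higher and 1.84% lower in SC-β against PP, with a median of 0.45. For PH against PP the shares were 11.5% and 12.8%, with a median of -0.10. SYNPO2 and CNN1, which encode synaptopodin 2 and calponin 1, had the largest log2 ratios for SC-β against PP, 2.84 and 2.07, leaving out ACTG2, which was listed at 0 in PP. CNN1 resembled TAGLN in being highest in hESCs, at 29.0 TPM against 12.6 TPM in SC-β. TPM1 and CALD1 were the most abundant by their mean over stages, and their SC-β levels of 347 and 139 TPM were below their maxima of 560 TPM in PGT and 226 TPM in hESCs. MYH11, the smooth muscle myosin heavy chain that defines mature smooth muscle, was at 1.42 TPM in SC-β and below 1 TPM elsewhere, and MYOCD, its transcriptional coactivator, was at 4.67 TPM in DE, 2.35 in PGT, 1.54 in PP, 0.385 in PH and 0.601 in SC-β. Of 5 other actins, only ACTG2 reached 2-fold in SC-β against PP, at 9.33 TPM from a listed 0. That share is near the 20.7% of all names at 1 TPM or more. ACTB and ACTG1 had log2 ratios of 0.56 and 0.55, near the median of 0.45 for those names. Reads that fit several actin genes equally well could be shared among them, and how they were treated is not given in the sources used here.

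Pericyte genes, which accompany PDGFRB in vessel walls, were less uniform. Of 7, CSPG4 and ANGPT1 were higher in SC-β than in PP and none was lower, a share near the 20.7% of all names at 1 TPM or more, and the median was 0.94 against 0.45 for those names. CSPG4, KCNJ8, ABCC9 and ANGPT1, 4 of the 7, were highest in SC-β as PDGFRB was, at 1.27 to 10.4 TPM. Of names at 1 TPM or more in a stage, 38.8% were highest in SC-β. RGS5 was highest in PGT (44.7 TPM, with 30.1 in SC-β) and NOTCH3 in DE (57.0 TPM, with 48.5 in SC-β). MCAM was highest in hESCs (34.1 TPM). PDGFRB was low in these 3 stages. In PH, RGS5 was at 4.60 TPM, its lowest stage.

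Genes on either side of the matrix were set beside FN1 and FAP. Of 6 integrin subunits that bind fibronectin, 4 were lower in PH than in PP (ITGAV, ITGB1, ITGA4 and ITGA8) with a median of -1.45, in the same comparison in which FN1 was lower. Of names at 1 TPM or more, 12.8% were lower there, with a median of -0.10. ITGA5, the alpha subunit of the main fibronectin receptor, was highest in DE, at 126 TPM. For SC-β against PP, ITGB3 alone was higher and none lower, against 20.7% higher of names at 1 TPM or more. Of 12 TGF-beta pathway genes, TGFB2, TGFBR3 and SMAD3 were higher in SC-β than in PP and none lower, a share near the 20.7% of all names at 1 TPM or more, with a median of 0.62 against 0.45 for those names. The log2 ratio of TGFB2 was 3.68. Among 6 relatives of FAP, DPP4 was the only one to reach 2-fold in SC-β against PP, from 0.955 to 55.8 TPM (4.86), and PREP and DPP8 were at 40.9 and 25.1 TPM in SC-β. The count of 1 in 6 is also near that 20.7%.

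**Figure D4:**
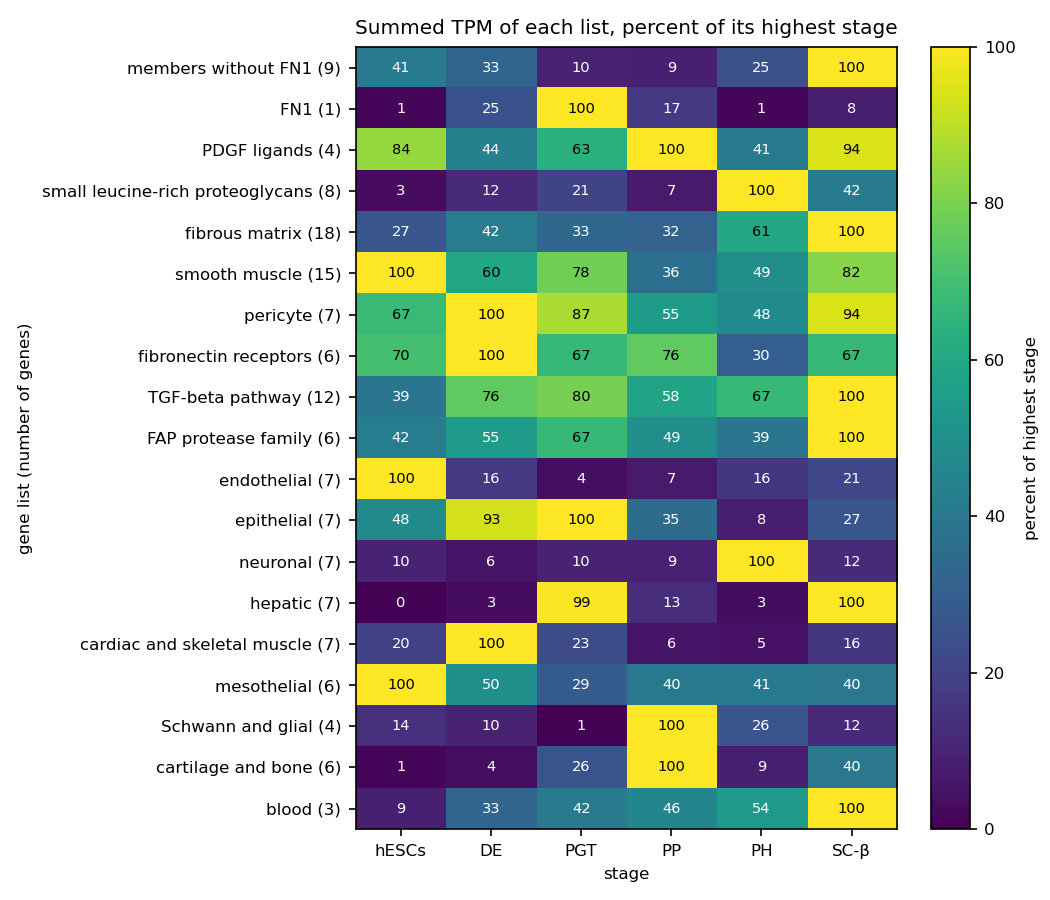
Each cell gives the summed TPM of a gene list at a stage as a percent of that list's highest stage (colour scale 0 to 100), with the lists as rows, their gene numbers in parentheses, and the 6 stages as columns. The members without FN1 and the fibrous matrix list are highest in SC-β, as are the TGF-beta pathway, FAP protease family, hepatic and blood lists. FN1 is highest in PGT, and the neuronal and small leucine-rich proteoglycan lists in PH.

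Markers of other cell types moved beside these genes, and their part in the differences was not tested. In PH, all 7 neuronal genes were higher than in PP, with a summed level of 1296 TPM against 117 TPM in PP and 162 in SC-β, and 6 of 7 epithelial genes were lower, with a sum of 238 TPM against 1024 TPM in PP and 781 in SC-β. For PH against PP, 11.5% of names at 1 TPM or more were higher and 12.8% lower. In SC-β, 7 of 7 hepatic genes were higher than in PH and 2 of 7 (ALB and TTR) higher than in PP. Of names at 1 TPM or more, 28.1% were higher in SC-β than in PH and 20.7% higher than in PP. The hepatic sum was 1484 TPM in PGT, the stage of the FN1 maximum, 188 TPM in PP, 48.1 TPM in PH and 1493 TPM in SC-β. TTR alone made up 943 TPM of it in PGT and 1229 TPM in SC-β. The endothelial markers PECAM1, CDH5 and EMCN stayed below 1 TPM at every stage. ERG was the only 1 of 7 higher in SC-β than in PP and none was lower, against 20.7% higher of names at 1 TPM or more. The endothelial sum was 3.98 TPM in PP, 11.3 in SC-β and 53.8 in hESCs. TEK and KDR made up 32.3 and 20.2 TPM of it in hESCs. Of 3 blood markers, PTPRC and CD14 were below 1 TPM at every stage, and the sum did not exceed 2.09 TPM. The mesothelial sum was 25.0 TPM in PP, 24.7 TPM in SC-β and 62.1 TPM in hESCs. PDPN made up 12.6, 11.8 and 59.7 TPM of these, and MSLN was below 1 TPM throughout. Of the 6 mesothelial genes, WT1, LRRN4 and BNC1 were higher in SC-β than in hESCs and PDPN was lower. Among names at 1 TPM or more, 42.4% were higher there and 7.08% lower. Against PP, WT1 alone was higher, at 1.94 TPM from a listed 0, and none was lower. The cardiac and skeletal muscle sum was 7.27 TPM in PP, 6.16 in PH and 19.6 in SC-β. It peaked in DE at 125 TPM, of which TTN made up 124 TPM. MYH7, MYOD1 and MYOG were below 1 TPM at every stage. TNNT2 and ACTN2 were the 2 of 7 higher in SC-β than in PP, at 7.09 and 2.04 TPM, and none was lower. Of names at 1 TPM or more, 20.7% were higher there.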

How the data were processed

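RNA-seq of 12 samples, 2 for each of 6 stages, was the data used; the other samples of the series, 148 in all, were not analysed here. The authors aligned reads to hg38 with HISAT2 (version 2.2.0), computed TPM with StringTie (version 2.1.6) and deposited the mean TPM of each stage, so single replicates and read counts were not used here and no test, interval or limit of detection could be computed. The annotation behind the table is not given in the sources used here. The methods name ribosomal RNA depletion and the labels also name a stranded mRNA kit, and the strand setting of the counting is not stated.

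Entries of 231 repeated names among 50451 were summed, giving 49085 names. Log2 ratios used a pseudocount of 1 TPM and a call was 2-fold; no fold is given against a listed 0. The computation (Python 3.11.15, numpy 2.4.6, pandas 2.3.3) was tested on simulated data with known changes. Positions are from GENCODE version 44 and promoter sequences from RefSeq, GRCh38.p14.

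Named genes are the 10 members; for each of 22 lists the 2 most abundant, the 2 with the largest absolute log2 ratio of SC-β to PP and any below 1 TPM at every stage; the 3 names most similar to each member; and genes next to or overlapping a member. Others, such as those a small count points to, were named after their values were seen. The members and lists were chosen with earlier results of these data known. HBZ was not found in the table. Some genes of the lists are not reported here, and counts and sums were computed without them.

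Alternatives were a pseudocount of 0.1 TPM, median-ratio rescaling, a 4-fold threshold, totals without the 100 most abundant genes or without the structural RNAs (Metazoa_SRP, RMRP, RPPH1, RN7SK and the RN7SL1 and RN7SL2 pair), a minimum of 1 TPM, and the highest entry of a name in place of the sum.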

Additional observations from a re-analysis of the deposited data

How the results depend on the processing

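No paired analysis was possible because the deposited columns are means over replicates, and for the same reason no replicate could be left out. Over 63 log2 ratios of the 10 genes, 297 alternative values stayed on the same side of 2-fold, 6 fell short of it, 5 newly reached it and 0 of those past it changed sign. Short of 2-fold, the sign turned for TAGLN in PH against PP and THY1 in SC-β against PH under the 3 other scalings. Of the alternative member counts, 83 stayed within 1.5 times and 15 moved. The cause of the moves was not tested.

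Ratios that fell short were THY1 for PGT against DE (-0.86 with median-ratio rescaling, -0.93 without structural RNAs, -0.91 without the 100 most abundant genes) and FAP for SC-β against PH (0.58, 0.66 and 0.63). Ratios that newly reached 2-fold were POSTN for DE against hESCs (-1.22) and ACTA2 for PGT against DE (1.89), both with a pseudocount of 0.1 TPM, ACTA2 also without structural RNAs (1.08) and without the 100 most abundant genes (1.26), and PDGFRB for PGT against DE without these (1.04).

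Member counts that moved were, without the 100 most abundant genes, 0 higher for DE against hESCs, 1 lower for PGT against DE, PP against PGT and PH against PP, and 0 lower for SC-β against PP, with FN1 left out of every comparison. Under median-ratio rescaling and without structural RNAs, 1 was lower for PGT against DE, and with 0.1 TPM 5 were higher. At 4-fold, 1 was lower for DE against hESCs, PGT against DE, SC-β against hESCs and PH against PP, 0 were lower for SC-β against PP, 2 were higher for PP against PGT and 4 for SC-β against PH.

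Counts over all names, higher and lower, with a pseudocount of 0.1 TPM were 15410 and 3194 (DE against hESCs), 3581 and 7814 (PGT against DE), 4696 and 5314 (PP against PGT), 13936 and 1877 (SC-β against PP), 20971 and 3751 (SC-β against hESCs), 6371 and 8279 (PH against PP), and 16761 and 3000 (SC-β against PH). At 4-fold, in the same order, they were 1059 and 328, 303 and 529, 361 and 334, 843 and 64, 2741 and 532, 659 and 495, and 1155 and 301. With median-ratio rescaling they were 3591 and 2365 for DE against hESCs, 3453 and 741 for SC-β against PP, 4047 and 2112 for SC-β against PH, and 3319 lower for SC-β against hESCs. Without structural RNAs 2039 were higher for PP against PGT, 859 lower for SC-β against PP, 4383 higher for PH against PP and 2450 lower for SC-β against PH. Without the 100 most abundant genes 2013 were lower for DE against hESCs, 1935 higher for PGT against DE, 2398 higher for PP against PGT, 1131 lower for SC-β against PP, 4831 higher for PH against PP and 2851 lower for SC-β against PH.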

Other observations

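Glial and some cartilage genes had their maxima in PP or PH. All 4 Schwann and glial genes were at least 2-fold higher in PP than in PGT and at least 2-fold lower in SC-β than in PP, with summed levels of 0.305 TPM in PGT, 56.9 in PP, 14.9 in PH and 6.85 in SC-β. Of names at 1 TPM or more, 6.3% were higher in PP than in PGT and 1.84% lower in SC-β than in PP. S100B, a calcium-binding protein gene of glia, was at 28.7 TPM in PP, while FOXD3, a neural crest factor gene, was highest in PH at 10.5 TPM against 9.72 TPM in PP and 0.353 in SC-β.

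Among 6 cartilage and bone genes, COL2A1, the chain of type II collagen, was at 92.9 TPM in PGT, 364 in PP, 26.2 in PH and 133 in SC-β. It was highest in PP, where PDGFRA and LUM were lower than in PGT and PH but higher than in hESCs and DE. ACAN, the aggrecan gene, and RUNX2, a bone transcription factor gene, were higher in SC-β than in PP, at 5.59 and 6.54 TPM, and MATN1, SP7 and IBSP were below 1 TPM at every stage.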
